A study of Oreochromis niloticus with 3 samples.

Results

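The mitochondrially encoded respiratory chain genes were taken as the rows of the count table that carry a mitochondrial gene symbol in capitals: ND1, ND2, ND4, ND5, CYTB, COX1, COX2, COX3, ATP6 and ATP8. These are 10 of the 29605 genes in the table. All 10 passed the minimum of 10 counts in at least 1 library. The RefSeq gene table of the assembly O_niloticus_UMD_NMBU lists 13 protein genes on the tilapia mitochondrial genome. The remaining 3 (ND3, ND4L and ND6) also have rows in capitals, were not in the list of members and are given separately.

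Juvenile Nile tilapia (Oreochromis niloticus) were kept at 0 psu (freshwater), 8 psu or 16 psu, with 3 tanks per salinity, and the salinity of the saline tanks was raised by 4 psu per day. The labels give 5 weeks of rearing, and the methods of the study give a longer time. Hepatopancreas RNA of 8 healthy fish was pooled in equal amounts for each salinity, so that each salinity is represented by 1 library of poly(A) RNA sequenced on 1 Ion Proton chip. The labels name the cell type as histiocytes of the hepatopancreas, and fish were fasted before sampling. With 1 library per salinity no difference below has a replicate check: the values compare libraries, the intervals are exact Clopper-Pearson 95% intervals that cover counting error only, and no p-value is given.

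The libraries at 0, 8 and 16 psu held 14627514, 13628578 and 16112951 counts. The labelled tissue was checked with marker genes. All 9 hepatocyte loci (9 of 14 symbols matched) had counts in every library, with summed levels of 37410, 32246 and 37149 CPM (counts per 1000000 counts of the scaled library) in the order 0, 8 and 16 psu. Single loci of this list moved apart: fabp10a had 179465, 74983 and 75667 counts, and cp 17820, 32946 and 76778. The 2 exocrine pancreas loci (2 of 12 symbols) summed to 7959, 11177 and 10961 CPM, and the 3 erythrocyte loci (2 of 6 symbols) to 162, 183 and 152 CPM. The 6 enterocyte loci (4 of 8 symbols) summed to 1258, 193 and 173 CPM. Nearly all of this was apoa4b (17110, 2673 and 2874 counts), a lipid transport gene that is not restricted to the intestine. Of the others, apoa4a had 83, 0 and 3 counts, and fabp2 and slc15a1b each had 23, 0 and 0. Few counts were seen for slc15a1a (1, 0 and 0) and anpepa (15, 24 and 24). None of the 6 enterocyte loci was at 0 in the 0 psu library, against 4 at 8 psu and 3 at 16 psu. The 12 skeletal muscle loci (8 of 13 symbols) summed to 20.3, 6.52 and 109 CPM, and 1 of them was at 0, at 16 psu. These differences run along with the libraries compared below, and their part in the mitochondrial values was not tested. In bulk tissue, fewer cells of a type and less RNA per cell cannot be told apart.

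The mitochondrial genome of vertebrates encodes core subunits of the respiratory chain, while all other subunits of these complexes are made from nuclear genes and imported. Complex I passes electrons from NADH to ubiquinone, complex III passes them on to cytochrome c, complex IV passes them to oxygen, and complex V uses the resulting proton gradient to make ATP. The mitochondrial genes are transcribed as long precursors that are cut at the intervening tRNAs, so that their mRNA levels depend on RNA processing and stability as well as on transcription. ATP8 and ATP6 overlap and share an mRNA in vertebrates, as do ND4L and ND4, and ND6 lies on the opposite strand from the other protein genes.

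The 10 genes together took 353785, 292315 and 332331 counts at 0, 8 and 16 psu. They made up 2.42% of the 0 psu library (2.41 to 2.43), 2.14% of the 8 psu library (2.14 to 2.15) and 2.06% of the 16 psu library (2.06 to 2.07). The freshwater library thus had the highest share and the 16 psu library the lowest, and the counting intervals did not overlap. After scaling by the TMM method (trimmed mean of M values), the summed level was 20928 CPM at 8 psu against 25795 CPM at 0 psu, a log2 fold change of -0.30 (-0.31 to -0.29). It was 19820 CPM at 16 psu against 25795 CPM at 0 psu, a log2 fold change of -0.38 (-0.39 to -0.37). Between 16 and 8 psu the log2 fold change was -0.08 (-0.09 to -0.07). With total counts as library sizes these values were -0.17, -0.23 and -0.06. The TMM values against 0 psu lay between the 25th and 75th percentiles of the 1469 genes with at least 1000 counts in a library. These percentiles were -0.46 and 0.20 for 8 psu against 0 psu, and -0.49 and 0.30 for 16 psu against 0 psu.

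**Figure D1:**
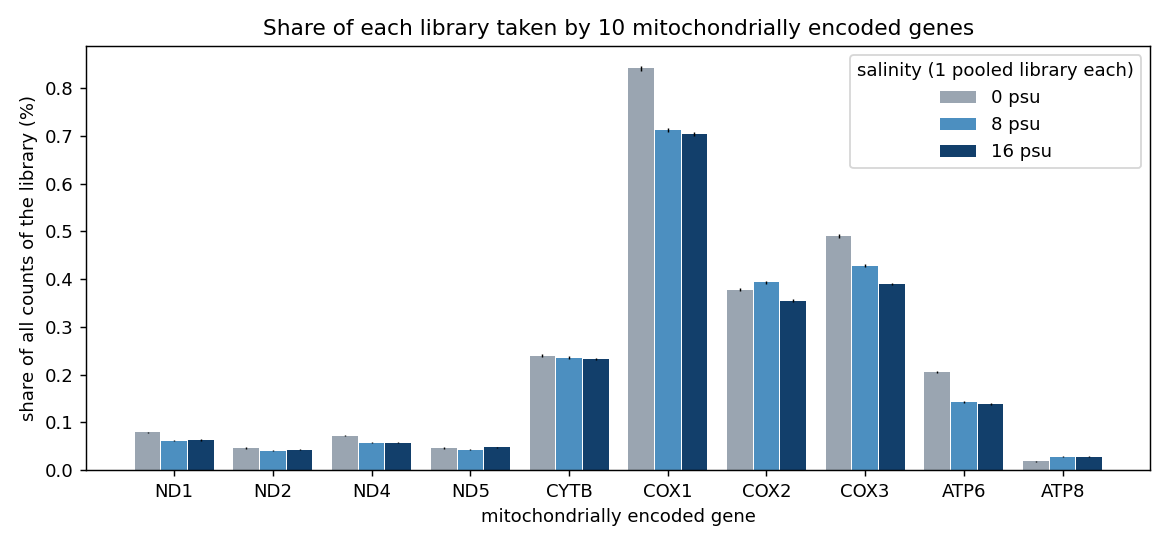
Share of all counts of each library (y axis, %) taken by each of the 10 genes (x axis), with 1 pooled library per salinity (0, 8 and 16 psu) and error bars of the 95% counting interval. COX1 takes 0.841%, 0.712% and 0.705%, and ATP8, the gene with the fewest counts of the 10, takes a higher share at 8 and 16 psu than at 0 psu.

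No member passed a 2-fold limit (a fold change above 2 or below 0.5 on CPM + 0.5) in any comparison. The limit was passed by 9.84% of the 16573 genes with at least 10 counts for 8 psu against 0 psu, by 11.1% for 16 psu against 0 psu and by 5.68% for 16 psu against 8 psu. A count of 0 among 10 members is near these backgrounds.

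At 8 psu 9 of the 10 members were lower than at 0 psu, with ATP8 as the exception (8 of 10 with total counts, where COX2 was higher too). The share of lower genes was 50.0% over all genes kept and 58.8% over those with at least 1000 counts. The median log2 fold change of the members was -0.32, with a range of -0.65 to 0.50, and that of all genes kept was 0.00. At 16 psu the same 9 members were lower than at 0 psu (8 with total counts, where ND5 was higher), beside 49.6% of all genes kept and 56.2% of those with at least 1000 counts. The median was -0.33, with a range of -0.72 to 0.46, against 0.01 over all genes kept. These comparisons share the 0 psu library, and their likeness is no independent evidence. The members also come from shared long precursors, so the common direction of 9 members does not amount to separate observations. Between 16 and 8 psu 7 members were lower and 3 (ND1, ND2 and ND5) higher, beside 49.7% lower of all genes kept and 48.3% of those with at least 1000 counts. The median was -0.04 and no value was below -0.17 or above 0.13, against 0.00 as the median of all genes kept.

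The number of lower members depended on the scaling for COX2 and ND5. With total counts the median of all genes kept moved to 0.12 for 8 psu against 0 psu and to 0.14 for 16 psu against 0 psu, and 8 of 10 members were lower in each, beside 41.2% and 39.6% of all genes kept. COX2 then had a value of 0.06 in the 8 psu library relative to 0 psu, and ND5 one of 0.05 in the 16 psu library relative to 0 psu. Relative to the shifted median of all genes these values were -0.06 for COX2 and -0.09 for ND5. Total counts in place of TMM add the same amount to the log2 fold change of every gene, up to the pseudocount: 0.13 for 8 psu against 0 psu, 0.15 for 16 psu against 0 psu and 0.02 for 16 psu against 8 psu.

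**Figure D2:**
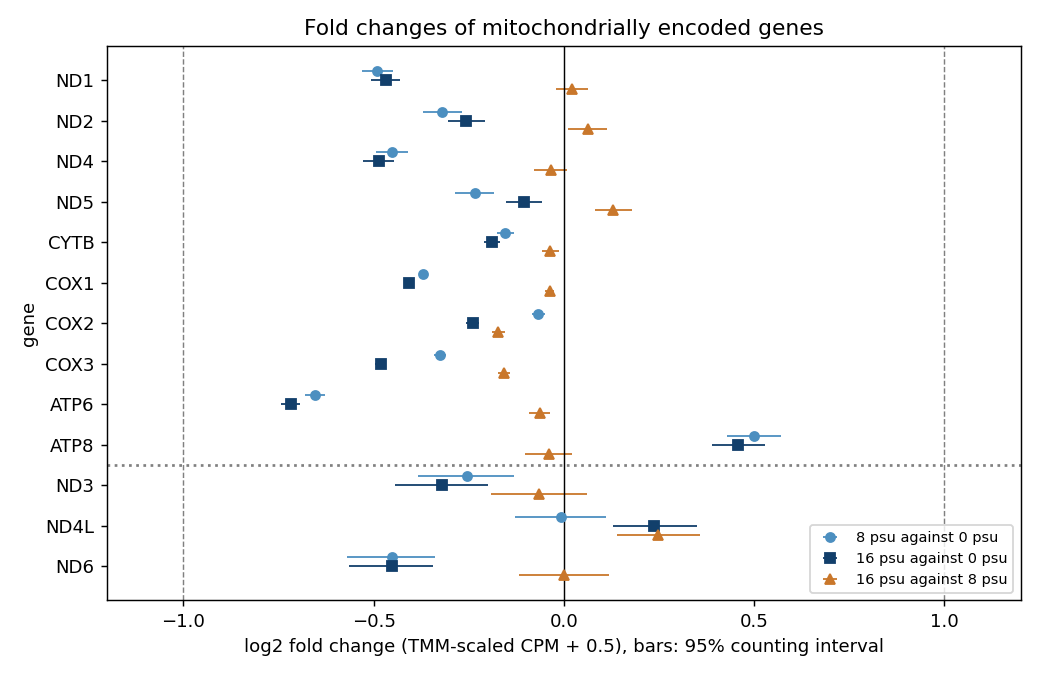
Log2 fold change (x axis, TMM-scaled CPM + 0.5) of each gene (y axis) in the 3 comparisons, with bars for the 95% counting interval, dashed lines at the 2-fold limits and the 3 genes outside the list of members below the dotted line. ATP6 lies farthest to the left at -0.65 and -0.72 against 0 psu, and ATP8 farthest to the right at 0.50 and 0.46.

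The complex V genes gave the widest difference between members. ATP6, the subunit that forms the proton channel of ATP synthase, had 30084, 19464 and 22364 counts at 0, 8 and 16 psu. The 0 psu library was the highest, also as a share of the library (0.206%, 0.143% and 0.139%). The log2 fold change was -0.65 (-0.68 to -0.63) for 8 psu against 0 psu and -0.72 (-0.74 to -0.69) for 16 psu against 0 psu, both below the 25th percentile (-0.46 and -0.49) of the 1469 genes with at least 1000 counts in a library. They were above the 5th percentile, at -1.15 and -1.24. With TMM a fold limit of 1.5 was passed by ATP6 alone among the members in these comparisons, beside 28.8% and 30.2% of all genes kept. With total counts ATP6 had -0.53 and -0.57 and did not pass it, while ATP8, with 0.63 and 0.61, did, beside 30.0% and 31.4% of all genes kept. The value for 16 psu against 8 psu was -0.06 (-0.09 to -0.04).

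ATP8, a small membrane subunit of the same enzyme, had 2717, 3912 and 4567 counts at 0, 8 and 16 psu. Its share of the library was 0.0186%, 0.0287% and 0.0283%, lowest at 0 psu and with overlapping counting intervals at 8 and 16 psu. The log2 fold change was 0.50 (0.43 to 0.57) for 8 psu against 0 psu and 0.46 (0.39 to 0.53) for 16 psu against 0 psu. Both lay between the 75th percentile (0.20 and 0.30) and the 95th (0.76 and 1.08) of genes with at least 1000 counts. For 16 psu against 8 psu ATP8 had -0.04 (-0.10 to 0.02), an interval that includes 0.

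ATP8 and ATP6 are next to each other on the mitochondrial genome, and a ratio of their counts within a library does not depend on the scaling. ATP8 had 9.03 counts per 100 ATP6 counts at 0 psu (8.68 to 9.39), 20.1 at 8 psu (19.4 to 20.8) and 20.4 at 16 psu (19.8 to 21.1). The ratio at 8 and 16 psu was thus more than 2 times that at 0 psu, and the 8 and 16 psu intervals overlapped. The sum of the pair, in which ATP6 has most counts, had a log2 fold change of -0.51 (-0.54 to -0.49) for 8 psu against 0 psu and of -0.57 (-0.60 to -0.55) for 16 psu against 0 psu. The submitters' processing notes name HTSeq as the counting tool, but its handling of reads in overlapping genes and its strand setting are not given in the sources used here. How reads over the ATP8 and ATP6 overlap were assigned is therefore not known. The read statistics of the study also show that filtering kept a larger share of reads in the freshwater library than in either saline library. This technical difference follows the same split as the ratio, and its part in the ratios and fold changes given here was not tested. COX3 is the next protein gene after ATP6, and ATP6 had 41.9, 33.3 and 35.6 counts per 100 COX3 counts at 0, 8 and 16 psu, highest at 0 psu.

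The same kind of pair is formed by ND4 and ND4L in complex I. ND4L, a gene outside the list of members, had 1139, 1153 and 1644 counts at 0, 8 and 16 psu. Set against 100 ND4 counts these were 10.8 (10.1 to 11.4), 14.6 (13.7 to 15.6) and, at 16 psu, 17.8 (16.9 to 18.8). As in the ATP8 and ATP6 pair, the first gene of the pair had its lowest ratio at 0 psu, and here the 8 and 16 psu intervals did not overlap. The log2 fold change of ND4L was -0.01 (-0.13 to 0.11) for 8 psu against 0 psu and 0.24 (0.13 to 0.35) for 16 psu against 0 psu.

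**Figure D3:**
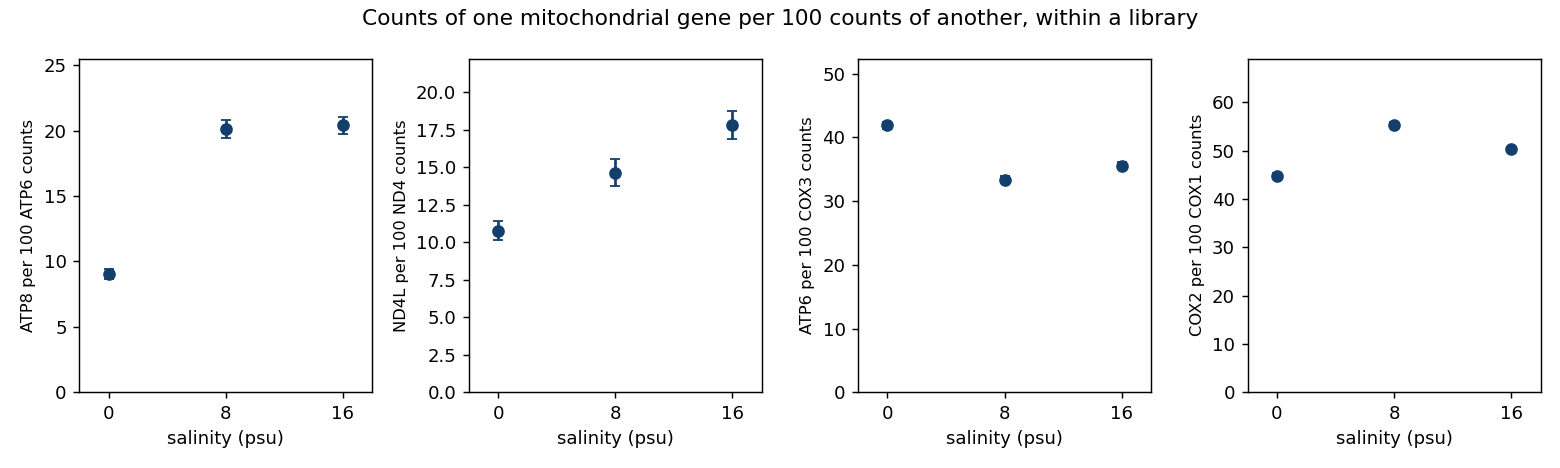
Counts of a mitochondrial gene per 100 counts of another (y axes, each starting at 0) against salinity (x axes, psu), 1 point per library with the 95% counting interval. ATP8 per 100 ATP6 counts is 9.03, 20.1 and 20.4 in the order of salinity, while ATP6 per 100 COX3 counts is highest at 0 psu, ND4L per 100 ND4 counts is highest at 16 psu, and COX2 per 100 COX1 counts is highest at 8 psu (55.3).

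The complex I members are membrane subunits: ND1 lies near the site where ubiquinone is bound, and ND2, ND4 and ND5 are the antiporter-like subunits that move protons. ND1 had 11577, 8393 and 10230 counts at 0, 8 and 16 psu. ND4 had 10585, 7879 and 9239 counts. In both genes the 0 psu library had the highest share and the 8 and 16 psu libraries were close. ND1 had a log2 fold change of -0.49 (-0.53 to -0.45) for 8 psu against 0 psu and of -0.47 (-0.51 to -0.43) for 16 psu against 0 psu. For ND4 these values were -0.45 (-0.49 to -0.41) and -0.49 (-0.53 to -0.45). Between 16 and 8 psu the counting intervals of ND1 (-0.02 to 0.06) and ND4 (-0.08 to 0.01) included 0.

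ND2 had 6818, 5565 and 6980 counts at 0, 8 and 16 psu, and ND5 had 6817, 5901 and 7754. At 0 psu both genes had nearly the same number of counts, and at 16 psu ND5 had more. ND2 had a log2 fold change of -0.32 (-0.37 to -0.27) for 8 psu against 0 psu and of -0.26 (-0.30 to -0.21) for 16 psu against 0 psu, and with total counts -0.19 and -0.11. ND5 had -0.23 (-0.28 to -0.18) and -0.10 (-0.15 to -0.06), the second of which was 0.05 with total counts. Between 16 and 8 psu ND5 had the highest value of all members, 0.13 (0.08 to 0.18). The 2 other complex I genes outside the list, ND3 and ND6, had 1119, 954 and 1095 counts and 1428, 1062 and 1275 counts at 0, 8 and 16 psu. ND6 had a log2 fold change of -0.45 in both comparisons with 0 psu, and ND3 had -0.25 and -0.32. ND6 and its neighbour ND5 are read from opposite strands, and without the strand setting sense and antisense reads of either gene cannot be told apart.

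CYTB, the heme-bearing subunit of complex III that oxidises ubiquinol, had 35107, 32136 and 37648 counts at 0, 8 and 16 psu. Its shares of the library were close, at 0.240% (0.238 to 0.243), 0.236% (0.233 to 0.238) and 0.234% (0.231 to 0.236), and only the intervals at 0 and 16 psu did not overlap. The TMM-scaled log2 fold change was -0.15 (-0.18 to -0.13) for 8 psu against 0 psu and -0.19 (-0.21 to -0.17) for 16 psu against 0 psu. With total counts it was -0.03 and -0.04.

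The complex IV genes had most of the mitochondrial counts. COX1, the catalytic subunit that reduces oxygen, had 123089, 97043 and 113526 counts at 0, 8 and 16 psu, and ranked 12th, 17th and 18th by counts among all genes. Its log2 fold change was -0.37 (-0.38 to -0.36) for 8 psu against 0 psu and -0.41 (-0.42 to -0.39) for 16 psu against 0 psu, and with total counts -0.24 and -0.26. COX3, a subunit without a redox centre, had 71777, 58370 and 62851 counts, with -0.32 (-0.34 to -0.31) and -0.48 (-0.50 to -0.47), or -0.20 and -0.33 with total counts. Both genes were highest at 0 psu, and COX3 had a further difference of -0.16 (-0.17 to -0.14) between 16 and 8 psu.

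COX2, which takes electrons from cytochrome c, had 55214, 53652 and 57172 counts at 0, 8 and 16 psu. Its log2 fold change was -0.07 (-0.08 to -0.05) for 8 psu against 0 psu and -0.24 (-0.26 to -0.22) for 16 psu against 0 psu. With total counts these values were 0.06 and -0.09. Per 100 COX1 counts it had 44.9 counts at 0 psu (44.4 to 45.3), 55.3 at 8 psu (54.7 to 55.9) and 50.4 at 16 psu (49.9 to 50.9). The ratio was highest in the 8 psu library. COX3 per 100 COX1 counts moved less, with 58.3, 60.1 and 55.4.

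Within the mitochondrial counts complex IV had the largest share and the other 3 complexes similar shares. The 3 complex IV genes took 70.7%, 71.5% and 70.3% at 0, 8 and 16 psu, and COX1 alone 34.8%, 33.2% and 34.2%. The 4 complex I genes took 10.1%, 9.49% and 10.3%, lowest at 8 psu. CYTB took 9.92%, 11.0% and 11.3%, lowest at 0 psu. ATP6 and ATP8 together took 9.27%, 8.00% and 8.10%, highest at 0 psu. Since reads also increase with gene length, which was not corrected, these are shares of reads and not of transcripts. The log2 fold changes of the 10 members had an SD of 0.31 for 8 psu against 0 psu, 0.32 for 16 psu against 0 psu and 0.09 for 16 psu against 8 psu.

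The nuclear-encoded subunits of the same complexes were set beside the members. Symbols matched were 35 of 37 for complex I, 9 of 9 for III, 12 of 16 for IV and 12 of 18 for V. The nuclear sums of complexes IV and V are thus of partial lists, and the levels of the ratios below cannot be compared between complexes. Of 80 symbols 68 were matched to 72 loci, and 71 loci passed the count minimum. At 8 psu 64 of the 71 were lower than at 0 psu and 18 were past the 2-fold limit, all 18 lower, beside 9.84% of all genes kept. At 16 psu 63 were lower than at 0 psu and 17 were past the limit, all lower, beside 11.1%. With total counts 59 and 53 of the 71 were lower, and 10 and 13 were past the limit. Over all genes kept 50.0% and 49.6% were lower with TMM, and 41.2% and 39.6% with total counts. The shares of all genes past the 2-fold limit were taken with TMM only. The median log2 fold changes of the nuclear loci were -0.57 and -0.51, or -0.45 and -0.36 with total counts. With either scaling these were further from 0 than the medians of the mitochondrial members (-0.32 and -0.33, or -0.19 and -0.18 with total counts). Between 16 and 8 psu 36 loci were higher and 35 lower, with a median of 0.00, beside 49.7% lower of all genes kept. With total counts 40 were higher and 31 lower, with a median of 0.02, beside 47.6% lower of all genes kept. None passed the limit with either scaling, beside 5.68% of all genes kept with TMM.

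The 4 complexes differed in this respect. For complex IV the 13 nuclear loci had median log2 fold changes of -1.16 at 8 psu and -1.10 at 16 psu against 0 psu. COX1, COX2 and COX3 lay between -0.48 and -0.07. With total counts the medians were -1.04 and -0.95, and COX1, COX2 and COX3 lay between -0.33 and 0.06. Of the 13 loci 7 were below the limit in each comparison (7 and 6 with total counts). The shares of all genes kept, taken with TMM, were 9.84% and 11.1%. The summed COX1, COX2 and COX3 counts were 6.74 times the nuclear complex IV counts at 0 psu (6.67 to 6.81), 9.62 times at 8 psu (9.49 to 9.76) and 9.70 times at 16 psu (9.58 to 9.83). Loci past the limit included ndufa4a with 5867, 2210 and 2438 counts, cox6a2 with 5284, 2286 and 2331, and cox7b with 2412, 856 and 835 at 0, 8 and 16 psu. The products of cox6a2 and cox7b are small accessory subunits, and that of ndufa4a is counted with complex IV in mammals. The nuclear complex IV locus with most counts, cox4i2, had 7366, 5345 and 4816 counts and log2 fold changes of -0.49 and -0.90 against 0 psu.

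For complex I the 35 nuclear loci above the minimum had medians of -0.50 and -0.46 against 0 psu. ND1 (-0.49 and -0.47) and ND4 (-0.45 and -0.49) lay close to them, and ND2 (-0.32 and -0.26) and ND5 (-0.23 and -0.10) nearer to 0. Below the limit were 9 of the 35 loci at 8 psu and 7 at 16 psu, beside 9.84% and 11.1% of all genes kept. With total counts only 3 and 4 of 35 were below it, near those shares, which were taken with TMM. Among the loci below the limit with TMM were ndufs4 (1376, 675 and 603 counts), ndufs5 (900, 391 and 519) and ndufb3 (895, 309 and 412). The accessory subunit gene ndufa8 (793, 381 and 546 counts) was below the limit at 8 psu. With total counts ndufs4 (-0.92) and ndufa8 (-0.94) were not below it at 8 psu, nor was ndufs5 (-0.92) at 16 psu. The core subunit gene ndufs1, with most counts of the list, had 1924, 1986 and 2124 counts and log2 fold changes of 0.02 and -0.15. The ratio of summed mitochondrial to nuclear complex I counts was 1.36, 1.43 and 1.46 at 0, 8 and 16 psu.

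For complex V the 13 nuclear loci had medians of -0.58 and -0.52, between the values of ATP6 and ATP8. The limit was passed by atp5f1d in both comparisons (1565, 765 and 845 counts) and by atp5pd at 16 psu (1096, 635 and 584). These were 1 of 13 loci at 8 psu and 2 of 13 at 16 psu, near the 9.84% and 11.1% of all genes kept. The gene with most counts, atp5mc3a, which encodes a proton-carrying ring subunit, had -0.31 and -0.52. The ratio of mitochondrial to nuclear complex V counts was 1.37, 1.32 and 1.30 at 0, 8 and 16 psu, with 12 of 18 nuclear symbols matched. For complex III the 10 nuclear loci had medians of -0.28 and -0.16, near the -0.15 and -0.19 of CYTB, and the second was -0.01 with total counts. Of these only uqcrq passed the limit (488, 229 and 255 counts), 1 of 10 loci in each comparison and so also near the share of all genes kept. The Rieske subunit gene uqcrfs1 (1134, 1307 and 1655 counts) had 0.18 and 0.25. With total counts neither atp5f1d nor uqcrq passed the limit at 8 psu. The ratio for complex III was 5.25, 5.63 and 5.21. Complex II has no mitochondrially encoded subunit. Its 3 matched loci had medians of -0.72 and -0.42, or -0.59 and -0.28 with total counts. In each comparison 1 of them was higher and 2 were lower than at 0 psu. The locus with most counts, sdhc, had 879, 538 and 619.

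**Figure D4:**
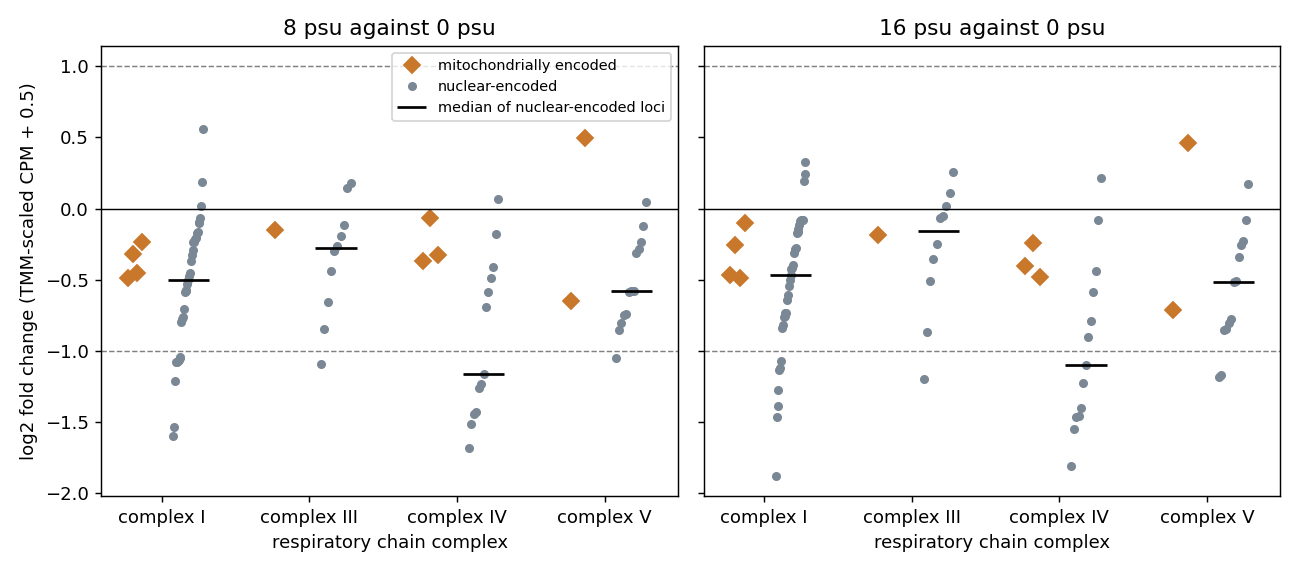
Log2 fold change (y axis, TMM-scaled CPM + 0.5) of mitochondrially encoded genes (diamonds) and nuclear-encoded loci (circles, bar at the median) by respiratory chain complex (x axis), at 8 psu (left) and 16 psu (right) against 0 psu, with dashed lines at the 2-fold limits. In complex IV the 3 mitochondrial genes lie above the nuclear median of -1.16 and -1.10, and in complex V ATP8 lies above every nuclear locus.

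Nuclear genes that act on mitochondrial DNA and RNA were described in the same way. Of 28 loci for mitochondrial transcription, replication and RNA handling 21 were lower at 8 psu than at 0 psu and 14 at 16 psu, with medians of -0.31 and -0.05, and with total counts 15 and 14 were lower, with medians of -0.20 and 0.07. Over all genes kept 50.0% and 49.6% were lower with TMM and 41.2% and 39.6% with total counts. The 14 of 28 at 16 psu is thus the background share with TMM, but above it with total counts. Both counts at 8 psu (21 and 15 of 28) are above their backgrounds. Past the limit were 1 locus at 8 psu and 2 at 16 psu against 0 psu, beside 9.84% and 11.1% of all genes kept. In both comparisons the limit was passed by slirp, whose product binds mitochondrial mRNA together with LRPPRC in mammals, with 126, 36 and 69 counts at 0, 8 and 16 psu. Its log2 fold change was -1.65 (-2.41 to -1.29) for 8 psu against 0 psu and -1.07 (-1.60 to -0.72) for 16 psu against 0 psu, where it did not pass with total counts. The gene with most counts, hsd17b10, which encodes a subunit of the mitochondrial tRNA-processing enzyme, had 1000, 760 and 1082 counts. Few counts lay behind mterf2 (2, 11 and 16), past the limit at 16 psu against 0 psu with 1.17 (0.62 to 5.87), and fastkd2 (14, 9 and 34), past it at 16 psu against 8 psu with 1.14 (0.56 to 2.90). With total counts mterf2 also passed it at 8 psu against 0 psu, with 1.04 in place of 0.995.

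Of 25 loci for mitochondrial import, transport and matrix enzymes 17 were lower at 8 psu than at 0 psu and 15 at 16 psu, with medians of -0.21 and -0.15 (15 and 12 with total counts, medians -0.09 and 0.00), beside the same backgrounds of 50.0% and 49.6% (41.2% and 39.6% with total counts). The phosphate carrier gene slc25a3a had 8208, 6652 and 7864 counts with -0.33 and -0.35, values close to the summed mitochondrial genes. Only dlat, a subunit of pyruvate dehydrogenase, passed the limit, at 8 psu, with 473, 203 and 460 counts, 1 of 25 loci beside 9.84% of all genes kept. Of 9 loci for regulators of mitochondrial biogenesis 5 were lower at 8 psu than at 0 psu and 6 at 16 psu. Their medians were -0.13 and -0.28. With total counts 5 were lower in each comparison, with medians of 0.00 and -0.14. These counts lie above the backgrounds given for the previous list, on only 9 loci. The locus with the identifier ppara had 249, 89 and 99 counts and passed the limit, and another locus of the same symbol, LOC100697805, had 665, 718 and 1199 counts and did not. The coactivator gene pprc1 passed the limit at 8 psu against 0 psu and at 16 psu against 8 psu on 20, 2 and 23 counts. Past the limit were thus 2 of the 9 loci at 8 psu and 1 at 16 psu against 0 psu, and 1 at 16 psu against 8 psu. The shares over all genes kept were 9.84%, 11.1% and 5.68%.

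The genes whose pattern was nearest to that of the summed members were sought among 1010 other genes with at least 1000 counts in every library. Likeness was the distance between the pairs of log2 fold changes against 0 psu, over 3 libraries. The nearest was ftcd, an enzyme of histidine breakdown, with 9004, 7530 and 8392 counts and a distance of 0.0208. It was followed by cfl2, an actin-binding gene, at 0.0285, slc9a7, a sodium/proton exchanger, at 0.0337, lonp2, a peroxisomal protease, at 0.0353, and LOC100697102 at 0.0366.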

How the data were processed

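Reads were mapped by the authors to the genome Orenil1.1 with MapSplice 2.1.8, which uses Bowtie 1.0.0. The deposited table gives raw whole-number counts for each gene in 1 column per salinity. The submitters' processing notes name HTSeq, without a version. For genes with several transcripts the longest was used. The reads were not analysed here.

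TMM factors were computed with edgeR 4.0.16 in R 4.3.3 over the 16573 genes that reached 10 counts in any library, which gave effective sizes of 13.7M, 14.0M and 16.8M counts at 0, 8 and 16 psu. A count of 1 was worth 0.0684, 0.0734 and 0.0621 CPM by the totals. Fold changes were taken on log2(CPM + 0.5). EB-Seq, used by the authors, was not installed, and with 1 library per salinity no test was run. Intervals are exact binomial 95% intervals of shares of reads, and those of fold changes were taken without the added 0.5 CPM. They treat reads as independent, although PCR duplicates are not marked. The calculation was tested on simulated Poisson counts, which carry counting error only. This could not test the variation between fish or between libraries. Shares, ratios and intervals came from scipy 1.17.1, pandas 2.3.3 and numpy 2.4.6 under Python 3.11.15, and plots from matplotlib 3.10.9.

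Alternatives were total counts with or without the mitochondrial genes, DESeq2 1.42.0 size factors and the upper quartile as scaling, a fold limit of 1.5, other count minimums, no pseudocount and sums of other members. The sum of 13 genes and the rescaling of single members, nuclear lists and the 1.5-fold limit were added after the data were seen. Members and gene lists (respiratory chain subunits by complex, mitochondrial nucleic acid handling, mass and biogenesis, and markers of hepatocyte, exocrine pancreas, muscle, erythrocyte and enterocyte) were chosen with earlier results of these data known. Named from each nuclear list were the locus with most counts and up to 3 loci per comparison past the 2-fold limit, taking those with most counts, and the 5 genes nearest in pattern. Loci were matched by symbol, with or without a trailing a or b, through the RefSeq table of another assembly (O_niloticus_UMD_NMBU), which holds 23652 of the 27855 locus numbers and gives a symbol to 13937. Its start positions were used only to order the mitochondrial protein genes. Its gene lengths were not used, and no sequence was read.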

Additional observations from a re-analysis of the deposited data

How the results depend on the processing

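The summed counts of the 10 genes were lower at 8 and at 16 psu than at 0 psu, and lower at 16 than at 8 psu, under each of the 6 alternatives run. For 8 psu against 0 psu, 16 psu against 0 psu and 16 psu against 8 psu, in this order, total counts gave log2 fold changes of -0.17, -0.23 and -0.056, total counts without the mitochondrial genes -0.18, -0.24 and -0.058, the upper quartile -0.26, -0.35 and -0.10, and the sum without COX1 -0.27, -0.37 and -0.10. DESeq2 size factors and the sum of 13 genes stayed within the counting interval. A fold limit of 1.5 was passed by 1 member at 8 psu and by 1 at 16 psu against 0 psu, in place of 0, beside 28.8% and 30.2% of all genes kept. With TMM this member was ATP6 (-0.65 and -0.72) and with total counts it was ATP8 (0.63 and 0.61), higher than at 0 psu, beside 30.0% and 31.4%. The number of all genes past the 2-fold limit was 1630, 1834 and 941, with at least 1 count 1731, 1898 and 972, and with at least 1000 counts, where fewer genes are tested, 147, 224 and 62. Leaving COX1 out of the denominator raises the within-mitochondrial share of each other member by construction. No pseudocount moved no member beyond its counting interval. No replicate could be left out, since each salinity has 1 library, and the depth limits only the counting error, which is small for these genes.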

Other observations

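The table also has 20 rows typed as rRNA or tRNA with names of the form l-rRNA or tRNA-Gln. The files do not say whether these belong to the mitochondrial genome, and the reference table gives no such names, so they were not counted with the members. The row l-rRNA had 37556, 48526 and 52216 counts at 0, 8 and 16 psu. Its log2 fold changes against 0 psu were 0.34 for 8 psu and 0.19 for 16 psu, where 9 of the 10 members were lower. Among the tRNA rows tRNA-Ser had the most counts, 5133, 2011 and 3027, with -1.38 and -1.05. In the other direction, tRNA-Gln had 190, 724 and 673 counts with 1.87 for 8 psu against 0 psu, and tRNA-Pro had 103, 295 and 323 counts with 1.43 and 1.30. tRNA-Glu, with 949, 778 and 1058 counts, had -0.31 and -0.13. These rows were chosen after their values were seen, each rests on 1 library per salinity, and poly(A) selection was not designed to recover tRNA.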
